A study of Mus musculus with 7 samples.

Results

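The genes described here are 42 genes of DNA replication and mitosis, chosen by name from textbook roles in the cell cycle and found by Entrez identifier among the 26286 genes of the count table. All 42 were in the table, and all 42 passed the filter on low counts that left 13681 genes for testing. They fall into 14 genes of origin licensing and firing, 6 of nucleotide supply and DNA synthesis, 5 regulators of the step from G1 into S phase, and 17 of mitosis. The first 2 groups together are called the S phase genes (20) below. Expression was measured by RNA-seq of polyadenylated RNA in cortical neurons from brains of male C57BL/6 mice at E16.5, with 3 wild type and 4 KAT7 mutant libraries. The sources used here do not give the mutant allele, any Cre driver, how the cells were obtained or whether littermates were compared.

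Before S phase, the origin recognition complex (ORC) with CDC6 and CDT1 loads the MCM helicase on replication origins. CDC45, the GINS complex and MCM10 then turn the helicase on, while ribonucleotide reductase, thymidylate synthase and the DNA polymerases supply and join nucleotides. Cyclins D and E with their kinases release E2F factors from RB proteins, which switches on many S phase genes, whereas mitosis genes are switched on later through other promoter elements. KAT7, also called HBO1, is a histone acetyltransferase first found through its binding to ORC1 and is known to bind MCM2. In the fetal cortex dividing cells are mainly radial glia and intermediate progenitors, and neurons have left the cycle. Many of these transcripts are typical of dividing cells, but which cells made each of them was not tested. In a bulk sample, fewer dividing cells, less RNA per dividing cell and a change in other cells cannot be told apart.

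Libraries held 8272487 to 8813060 counts. Levels are given as CPM (counts scaled to a common library total), and as RPKM (CPM divided by gene length in kilobases) where genes are compared with each other. Kat7 counts were 848 to 869 in wild type and 3 to 10 in mutant libraries, 0.592% of the wild type level when summed (95% exact binomial interval 0.361 to 0.917, counting error only). On the second principal component (9.8% of the variance) mutant replicate 1 stood apart at 23.1, against -9.75 to 1.65 for the rest. For the called genes among the 42 in which this library lay within the wild type range, the value without it is also given. In these libraries 10 neuron markers summed to 11480 to 12880 CPM. The sum of 10 radial glia markers was 725.7 to 751.3 CPM in wild type and 470.7 to 522.4 CPM in mutant libraries. Such sums depend on which genes are listed and on their length, so they cannot check the labelled cell type.

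Promoter motifs are usually used to tell the S phase and mitosis programmes apart, though not all of these genes carry the motif of their group. Promoters of 6 genes are shown from RefSeq (GRCm38.p6). The table of promoter windows, each running from 250 bases before the annotated start to 50 after it, matched 33 of the 42 genes by symbol. Each line gives the 135 bases from 140 to 6 bases before the start, and capitals mark an E2F site or a cell cycle genes homology region (CHR). Mcm2, Mki67 and Ube2c fell in the mutant libraries, whereas Mcm6, Cdc6 and Cdk1 did not pass the test.
Mcm2 (chr6:88898786-88898920, minus strand, CHR): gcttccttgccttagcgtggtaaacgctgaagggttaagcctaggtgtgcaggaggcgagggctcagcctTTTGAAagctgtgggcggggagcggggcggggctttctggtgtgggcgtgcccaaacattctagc
Mcm6 (chr1:128359711-128359845, minus strand, E2F): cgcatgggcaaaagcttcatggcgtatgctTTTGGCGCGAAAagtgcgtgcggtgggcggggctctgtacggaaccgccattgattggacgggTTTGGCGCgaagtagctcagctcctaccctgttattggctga
Cdc6 (chr11:98908011-98908145, plus strand, E2F): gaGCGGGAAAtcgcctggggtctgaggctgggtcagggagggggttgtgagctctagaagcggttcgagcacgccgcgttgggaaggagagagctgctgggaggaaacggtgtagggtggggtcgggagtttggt
Mki67 (chr7:135716385-135716519, minus strand, CHR): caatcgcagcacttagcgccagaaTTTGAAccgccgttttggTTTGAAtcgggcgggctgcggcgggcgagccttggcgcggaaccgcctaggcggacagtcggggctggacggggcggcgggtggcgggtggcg
Cdk1 (chr10:69352918-69353052, minus strand, E2F and CHR): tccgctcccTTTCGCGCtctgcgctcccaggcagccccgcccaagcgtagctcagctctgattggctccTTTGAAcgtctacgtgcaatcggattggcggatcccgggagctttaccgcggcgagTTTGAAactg
Ube2c (chr2:164769789-164769923, plus strand, CHR): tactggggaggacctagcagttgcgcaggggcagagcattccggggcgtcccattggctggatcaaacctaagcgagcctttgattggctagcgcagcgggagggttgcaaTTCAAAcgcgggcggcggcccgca

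E2F sites were searched on both strands as TTTCCCGC, TTTCGCGC, TTTGCCGC and TTTGGCGC, and CHR elements as TTTGAA and TTCGAA. An E2F site was found in 8 of 17 S phase genes (47.1%), in 1 of 14 mitosis genes (7.14%), in 0 of the 2 G1/S regulators with a window (Ccne1 and E2f1, which held none of the motifs searched) and in 477 of 10086 tested genes with a window (4.73%). The 8 were Orc1, Cdc6, Cdt1, Mcm3, Mcm5, Mcm6, Mcm7 and Pola1, and the mitosis gene was Cdk1. A CHR element was found in 11 of 14 mitosis genes (78.6%), in 3 of 17 S phase genes (17.6%), namely Mcm2, Mcm7 and Cdc45, and in 16.0% of tested genes with a window. The CCAAT box, a binding site of NF-Y that does not share the letters of the other motifs, was in 14 of the 17 S phase and 13 of the 14 mitosis genes, against 43.1% of tested genes. These matches describe the letters in a fixed window, and Mcm7 and Orc2 had 2 windows each. Genes with the same motif had a range of log2 fold changes, and differences between genes were not tested. Among the 8 S phase genes with an E2F site the log2 fold change ran from -0.71 (Cdc6) to 0.25 (Pola1). Among the 11 mitosis genes with a CHR element it ran from -0.57 (Ccnb2) to 0.04 (Plk1). Cdc6, Pola1 and Plk1 did not pass the test.

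**Figure D1:**
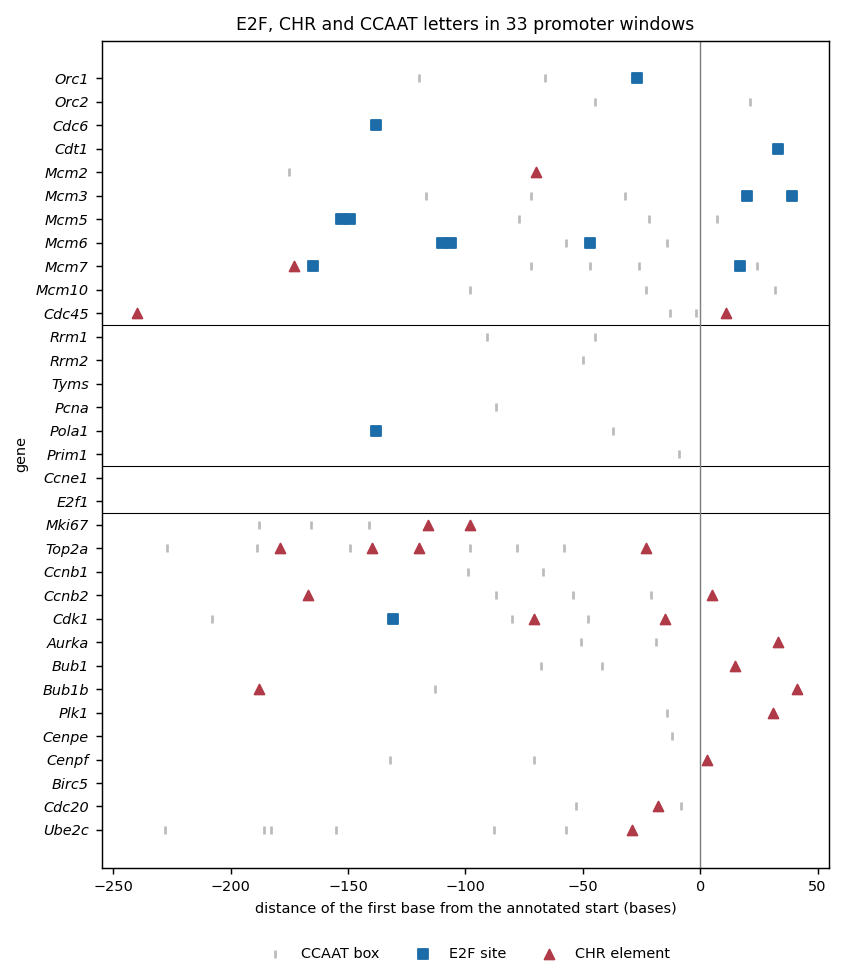
Position of E2F sites (squares), CHR elements (triangles) and CCAAT boxes (ticks) in the promoter windows of 33 genes, as the distance in bases of the first base from the annotated start. Squares lie mostly among the licensing genes in the top block and triangles among the 14 mitosis genes in the bottom block.

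The comparison of genotypes asks whether cortical cells that lack most Kat7 mRNA differ in these transcripts. Of the 42 genes, 10 fell (23.8%), 2 rose (4.76%) and 30 did not pass the edgeR quasi-likelihood test at an adjusted p under 0.05. Over all tested genes 15.8% fell and 13.1% rose (28.9% called in all). The total share of these genes called is near that background and is not a result about them. Their split by direction (23.8% lower, 4.76% higher) was not tested against the background. The falls were small, the largest being 1.78-fold for Ccne1. Among S phase genes 4 of 20 fell (20%) and 0 rose, by edgeR, with 7 of 20 at an unadjusted p under 0.05. Among mitosis genes 4 of 17 fell (23.5%) and 0 rose, with 8 of 17 at an unadjusted p under 0.05. Every called gene has an unadjusted p under 0.05, and so have some uncalled genes, so over all tested genes that share is above 28.9%. It was not counted, so the unadjusted counts are not a result about either group. DESeq2 called 0 genes of either group higher. In 15 of the 17 mitosis genes the log2 fold change was below 0, as in 13 of the 20 S phase genes and 49.5% of all tested genes. The median log2 fold change was -0.25 for mitosis and -0.15 for S phase genes, against 0.00254 over all tested genes.

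**Figure D2:**
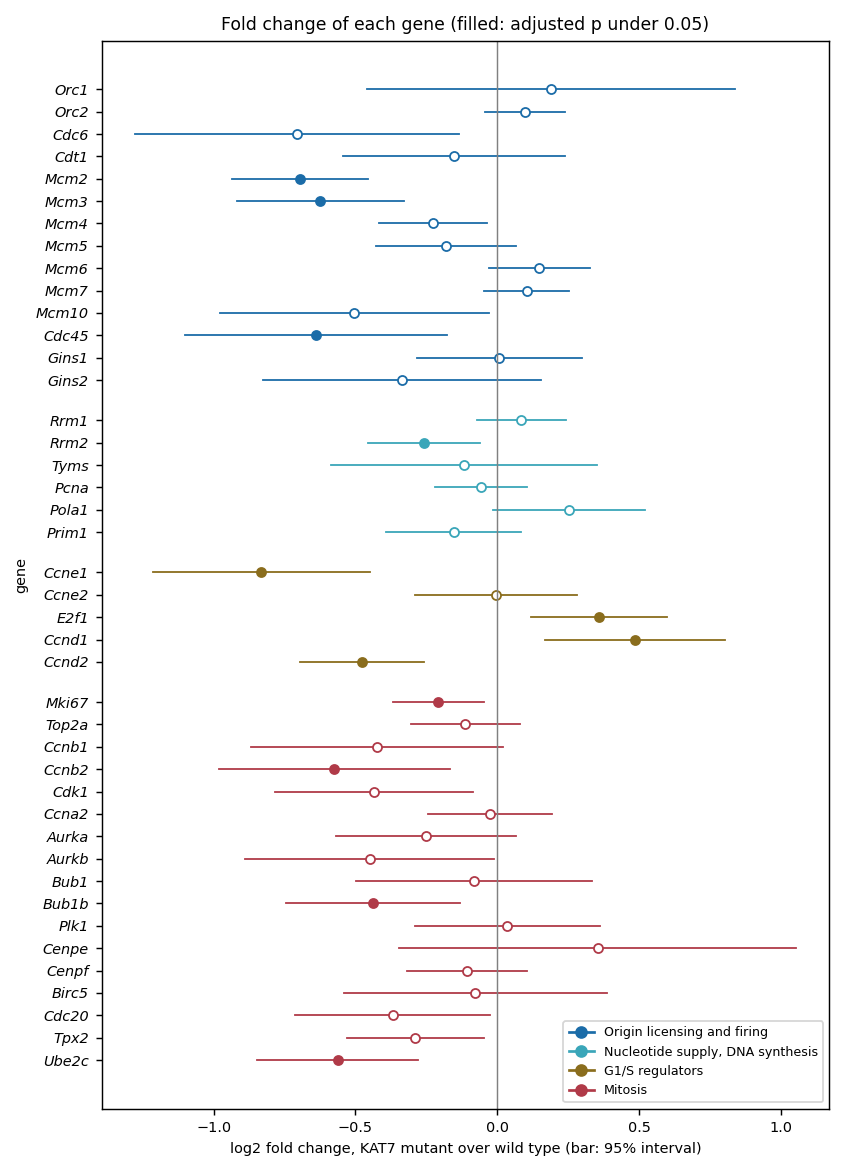
Log2 fold change of KAT7 mutant over wild type for each of the 42 genes, with its 95% interval from the edgeR fit. Filled points mark the 12 genes that passed the test, of which 10 lie below 0, while E2f1 and Ccnd1 lie above 0.

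Among licensing genes, the clearest falls were in Mcm2 and Mcm3, which encode subunits of the helicase ring. Mcm2 stood at 22.8, 23.2 and 30.8 CPM in wild type replicates 1 to 3 and at 17.1, 14.1, 16.2 and 15.9 CPM in mutant replicates 1 to 4. Every mutant library was below every wild type library. Mcm2 fell by a log2 fold change of 0.70 ± 0.11 (SE; edgeR adjusted p = 0.000111). Mcm3 stood at 10.4, 11.3 and 14.3 CPM in wild type and at 8.18, 7.07, 8.62 and 7.34 CPM in mutant libraries, a log2 fold change of -0.62 ± 0.14 (edgeR adjusted p = 0.00208). Its genotypes did not overlap either. In both genes wild type replicate 3 was the highest library.

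The other subunits of the ring did not pass the test, and their levels in a common unit differed widely. In wild type libraries Mcm6 was at 18.8 RPKM, Mcm7 at 17.2, Mcm4 at 7.63, Mcm2 at 7.59, Mcm5 at 4.73 and Mcm3 at 4.16. Mcm6 had 49.8, 59.7 and 54.3 CPM in wild type and 50.2, 61.9, 64.5 and 65.7 CPM in mutant libraries, so that mutant replicate 1 lay within the wild type range and the other 3 above it. Its log2 fold change was 0.15 (95% interval -0.03 to 0.33, edgeR adjusted p = 0.21), and without mutant replicate 1 it was called higher (0.226, adjusted p = 0.0215; alternatives gave 0.0215 to 0.569). The intervals were -0.05 to 0.25 for Mcm7, -0.42 to -0.04 for Mcm4 (adjusted p = 0.0685, and called at 0.0235 once wild type replicate 1 was left out) and -0.43 to 0.07 for Mcm5.

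Of the factors that load or start the helicase, Cdc45 fell, with large spread. Cdc45, whose protein joins the helicase when it starts, stood at 4.63, 6.75 and 6.67 CPM in wild type and at 5.49, 3.01, 4.25 and 2.69 CPM in mutant libraries. Mutant replicate 1 lay above wild type replicate 1, so the genotypes overlapped. Cdc45 fell by a log2 fold change of 0.64 ± 0.22 (edgeR adjusted p = 0.0354), a call lost without wild type replicate 2 or 3 or mutant replicate 2 or 4 (adjusted p 0.0989 to 0.145), by DESeq2 (0.0788) and with the replicate block (0.139). Without mutant replicate 1 the value was -0.86. Cdc6, the loader protein gene, had 1.90, 2.98 and 2.38 CPM in wild type and 1.75, 1.16, 1.54 and 1.47 CPM in mutant libraries. These are 10 to 26 counts per library, and although the genotypes did not overlap, the value of -0.71 ± 0.27 did not pass the test (edgeR adjusted p = 0.0591). It passed without wild type replicate 1 (0.0425) or mutant replicate 1 (0.0483).

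Orc1 and Orc2, subunits of the complex that marks origins, gave no call. Orc2 was at 45.2 to 47.9 CPM in wild type and 47.0 to 52.3 CPM in mutant libraries (log2 fold change 0.10, 95% interval -0.04 to 0.24). Orc1, whose product binds KAT7, was scarce, at 9 to 15 counts per library, and its interval of -0.46 to 0.84 is wide. Cdt1 (-0.15), Mcm10 (-0.50), Gins1 (0.01) and Gins2 (-0.34) completed the group and did not pass the test either. The span of Gins2 overlaps that of Gse1 (a mean of 247 CPM in wild type), which rose by 0.28 (edgeR adjusted p = 0.00105). Only gene spans were compared, not exons, and whether Gins2 and Gse1 share reads was not tested. In all, 5 of the 14 licensing genes (Cdc6, Mcm2, Mcm3, Mcm10 and Gins2) were lower in every mutant than in every wild type library, and 0 were higher in every one. Over all 13681 tested genes 18.8% were lower without overlap, and 2258 were higher.

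Genes of nucleotide supply and DNA synthesis differed little. Rrm2, the subunit of ribonucleotide reductase that varies through the cell cycle, stood at 28.9, 31.0 and 30.9 CPM in wild type and at 29.7, 24.5, 24.8 and 22.1 CPM in mutant libraries. Mutant replicate 1 lay among the wild type libraries and the other 3 lay below them. The log2 fold change of -0.26 ± 0.10 passed narrowly (edgeR adjusted p = 0.0468), and the call was lost without any 1 library other than mutant replicate 1 (adjusted p 0.0516 to 0.142). RLE factors (0.0506), DESeq2 (0.105) and the replicate block (0.167) also ended it, and without mutant replicate 1 the value was -0.348. Its partner Rrm1 was at 51.3 to 60.1 and 53.6 to 63.9 CPM (0.08, 95% interval -0.07 to 0.24). Pcna, the sliding clamp gene and at 27.7 RPKM the second most abundant of the 42 in wild type, had an interval of -0.22 to 0.11. Tyms (-0.12), Prim1 (-0.15) and Pola1 (0.25) did not pass the test. Reads of Tyms and of Pcna may be shared with named pseudogene copies.

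The regulators of S phase entry gave calls in both directions, 2 higher and 2 lower of 5, against 13.1% higher and 15.8% lower over all tested genes. Ccne1, which encodes the E cyclin that activates CDK2, stood at 6.17, 6.98 and 5.66 CPM in wild type and at 3.04, 3.36, 4.49 and 3.18 CPM in mutant libraries. The genotypes did not overlap. Ccne1 fell by a log2 fold change of 0.83 ± 0.18 (edgeR adjusted p = 0.00177). Ccne2, the other E cyclin gene, was at 10.4 to 13.2 and 9.78 to 13.9 CPM, with an interval of -0.29 to 0.28.

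The D cyclin genes, which couple growth signals to the cycle, went in opposite directions. Ccnd2, at 34.2 RPKM the most abundant of the 42 genes in wild type, stood at 182, 188 and 223 CPM in wild type and at 185, 118, 138 and 127 CPM in mutant libraries. Mutant replicate 1 was within the wild type range, and the other 3 mutant libraries were below it. The log2 fold change was -0.48 ± 0.10 (edgeR adjusted p = 0.0017), or -0.635 without mutant replicate 1. Neither DESeq2 nor the robust edgeR fit called Ccnd2 (adjusted p 0.0643 and 0.111; alternatives gave 1.28e-12 to 0.111). Ccnd1 stood at 6.89, 7.55 and 9.28 CPM in wild type and at 8.88, 10.9, 11.7 and 13.0 CPM in mutant libraries. It rose by a log2 fold change of 0.49 ± 0.15 (edgeR adjusted p = 0.0199), with mutant replicate 1 below wild type replicate 3. The call was lost without wild type replicate 1 or 2 or mutant replicate 4 (adjusted p 0.0689 to 0.0977), and without mutant replicate 1 the value was 0.577.

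E2f1, an activating E2F factor gene, stood at 13.775, 13.96 and 15.952 CPM in wild type and at 16.475, 21.68, 17.72 and 18.829 CPM in mutant libraries. Every mutant library was above every wild type library. E2f1 rose by 0.36 ± 0.12 on the log2 scale (edgeR adjusted p = 0.0237), a call lost without wild type replicate 1 or 2 or mutant replicate 2 (adjusted p 0.0863 to 0.096), by DESeq2 (0.0524) and with the replicate block (0.0523). The span of E2f1 overlaps that of Necab3, which rose by 0.71 ± 0.13 (edgeR adjusted p = 0.00023). The strand setting of the counting is not given and exons were not compared, so whether the 2 genes share reads was not tested. The spans of Cdc45 and Ccnd1 overlap those of Ufd1 and LTO1, which were not called (0.08 and 0.20).

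**Figure D3:**
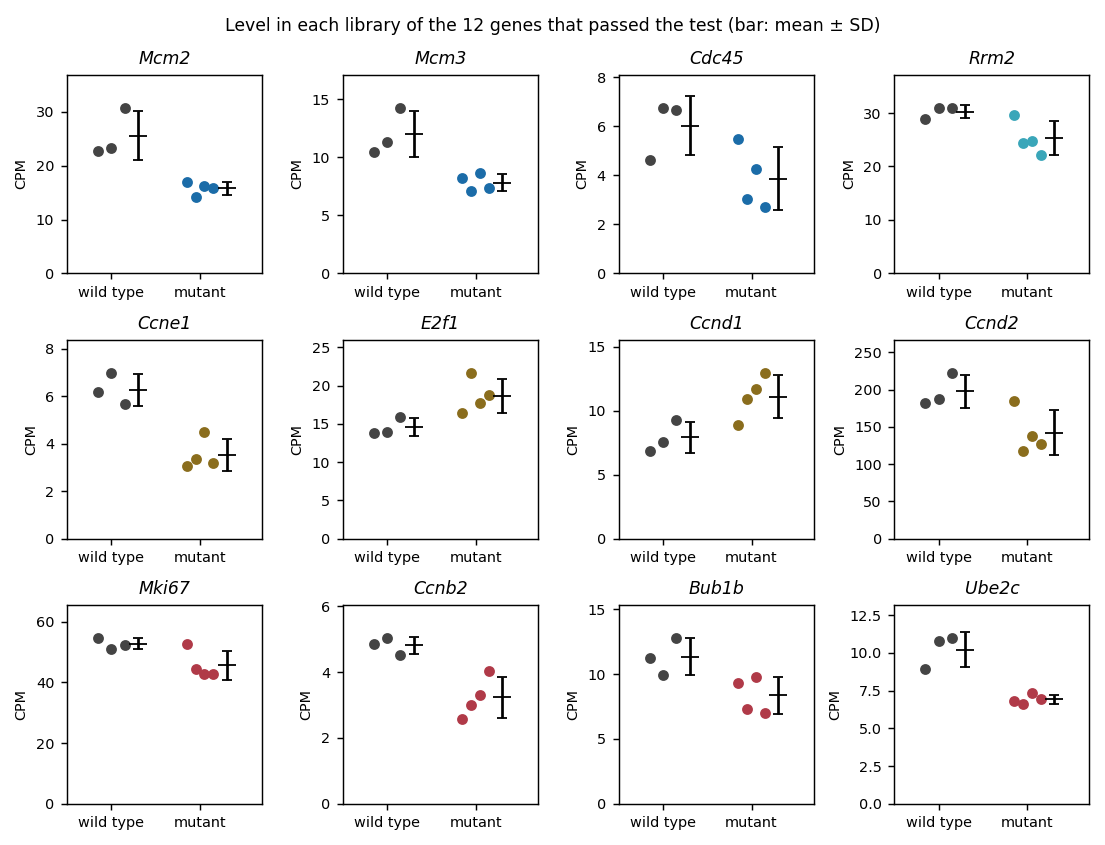
CPM in each of the 3 wild type (dark grey) and 4 mutant (coloured) libraries for the 12 genes that passed the test, each panel on its own axis from 0, with the mean and SD beside the points. Mcm2, Mcm3, Ccne1, E2f1, Ccnb2, Bub1b and Ube2c show no overlap between genotypes, and in Cdc45, Rrm2, Ccnd1, Ccnd2 and Mki67 1 mutant library lies within the wild type range.

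Among mitosis genes Ube2c showed the clearest fall. Ube2c, the ubiquitin-conjugating enzyme gene that serves the anaphase-promoting complex, stood at 8.91, 10.8 and 11.0 CPM in wild type and at 6.78, 6.61, 7.32 and 6.97 CPM in mutant libraries. The genotypes did not overlap, and the mutant libraries lay close together. Ube2c fell by a log2 fold change of 0.56 ± 0.14 (edgeR adjusted p = 0.00368). Ccnb2, a B cyclin gene, stood at 4.87, 5.03 and 4.53 CPM in wild type and at 2.57, 3.01, 3.31 and 4.03 CPM in mutant libraries (-0.57 ± 0.20, edgeR adjusted p = 0.0318). Its genotypes did not overlap either, at 22 to 44 counts per library. The call was lost without any 1 wild type library or mutant replicate 1 or 2 (adjusted p 0.0527 to 0.0971), and by DESeq2 (0.129). Named pseudogene copies of Ccnb2 and of Ccnb1 exist, with which their reads may be shared.

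Bub1b, the BUBR1 kinase gene of the spindle checkpoint, stood at 11.3, 9.96 and 12.8 CPM in wild type and at 9.35, 7.30, 9.80 and 6.97 CPM in mutant libraries. The gap between the genotypes was narrow, from 9.80 to 9.96 CPM. The log2 fold change was -0.44 ± 0.15 (edgeR adjusted p = 0.029), a call lost without wild type replicate 1 or 3 or mutant replicate 2 or 4 (adjusted p 0.0605 to 0.152), by DESeq2 (0.0771) and with the replicate block (0.0642). Mki67, the gene of the Ki-67 proliferation antigen, stood at 54.6, 51.0 and 52.5 CPM in wild type and at 52.6, 44.4, 42.6 and 42.9 CPM in mutant libraries. Mutant replicate 1 was again within the wild type range. Its fall of 0.21 ± 0.08 (log2, edgeR adjusted p = 0.0475) had an adjusted p of 0.0718 to 0.139 without any 1 library other than mutant replicate 1, without which the value was -0.285. RLE factors (0.0523), DESeq2 (0.105) and the replicate block (0.0973) also ended the call.

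The remaining 13 mitosis genes did not pass the test. Cdk1, the kinase gene that drives entry into mitosis, was at 6.06 to 7.92 CPM in wild type and 4.56 to 6.26 CPM in mutant libraries (-0.43 ± 0.17, edgeR adjusted p = 0.0582), and passed without wild type replicate 1 (0.0414) or mutant replicate 3 (0.0273). Ccnb1 (-0.42), Aurkb (-0.45) and Cdc20 (-0.37) were lower in every mutant than in every wild type library, with adjusted p of 0.146, 0.116 and 0.0988. Tpx2 was at -0.29 (adjusted p = 0.0677, called at 0.0489 with wild type replicate 2 left out and at 0.0128 with mutant replicate 3 left out) and Aurka at -0.25. Top2a, Cenpf, Birc5, Bub1 and Ccna2 lay between -0.11 and -0.03, and Plk1 and Cenpe at 0.04 and 0.35. Ccna2 had a 95% interval of -0.25 to 0.19, whereas Cenpe, with 7 to 16 counts per library, had one of -0.35 to 1.05. In all, 6 of 17 mitosis genes were lower in every mutant library than in any wild type library, and 0 were higher, against 18.8% lower and 2258 of 13681 higher over all tested genes.

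**Figure D4:**
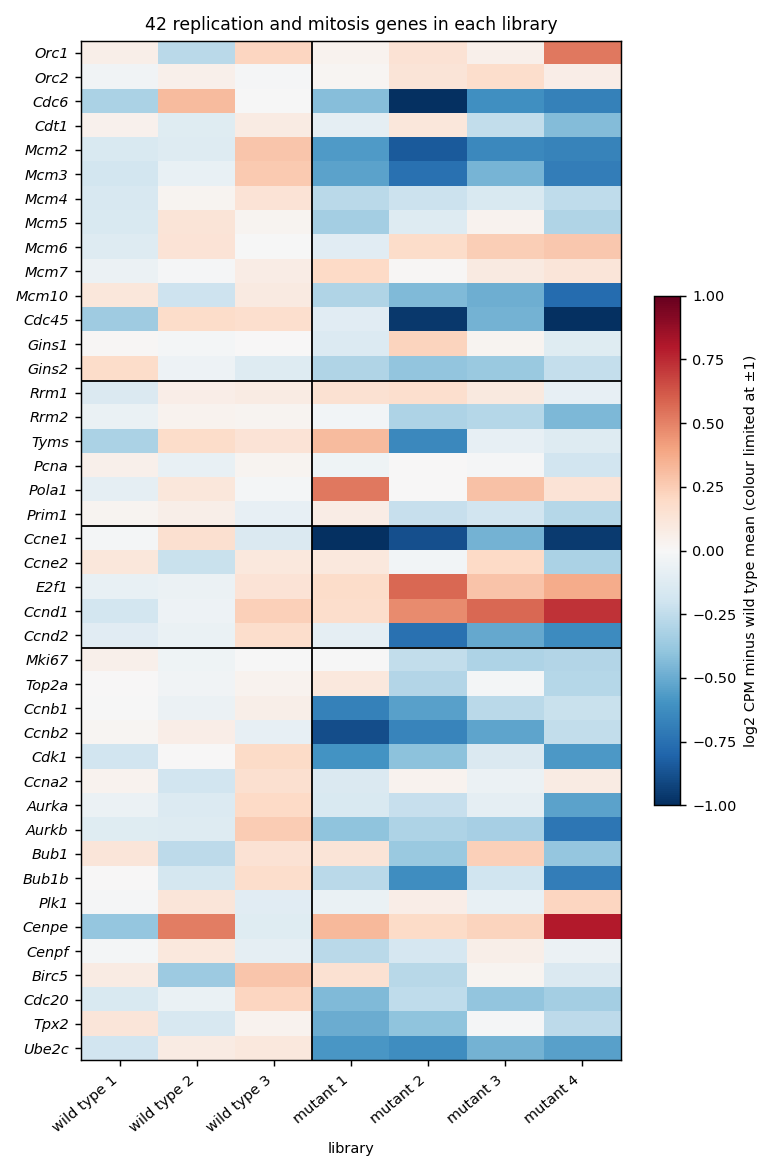
Level of each of the 42 genes in each library as log2 CPM minus the wild type mean (colour limited at ±1), with lines between genotypes and between the licensing, synthesis, G1/S and mitosis groups. Blue cells run across the 4 mutant libraries for Mcm2, Mcm3, Ccne1 and Ube2c, and the colour of mutant replicate 1 is pale for Ccnd2, Mki67, Rrm2 and Cdc45.

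S phase and mitosis genes were set side by side by their medians in each library, relative to the wild type mean. The S phase medians ran -0.08, 0.03 and 0.05 over the wild type libraries and -0.10, -0.17, -0.12 and -0.25 over the mutant ones. Mitosis medians were -0.004, -0.06 and 0.11 in wild type and -0.27, -0.29, -0.09 and -0.29 in mutant libraries. In both groups every mutant library was below every wild type library. The S phase median minus the mitosis median was -0.08 to 0.09 in wild type and -0.03 to 0.16 in mutant libraries, ranges that overlap. Summed levels were 215.9 to 233.2 CPM in wild type and 185.1 to 204.3 CPM in mutant libraries for mitosis genes, and 381.7 to 423 against 376.3 to 403.5 CPM for S phase genes. The mean sum in the mutant libraries was 86.6% of wild type for mitosis, 96.4% for S phase and 66.4% for 10 tested radial glia markers. Most of the radial glia sum was Ptprz1, named after its values were seen, at a mean of 457 CPM in wild type and 280 CPM in mutant libraries.

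Of the 12 calls, 4 (Mcm2, Mcm3, Ccne1 and Ube2c) held under all 17 alternatives of normalization, filter, tool, threshold and left-out library. The counts of calls were smaller under several of them: 2 S phase genes fell without wild type replicate 2 or 3 or mutant replicate 2 or 4, and by DESeq2. Mitosis genes fell in 1 case without wild type replicate 3 or mutant replicate 2 and by DESeq2, and in 2 cases without wild type replicate 1 or mutant replicate 4.

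Other genes of DNA replication were taken from textbook lists, chosen with earlier results of these data known. Of 31 fork and synthesis factors 8 fell (25.8%, against 15.8% of all tested genes), 0 rose (against 13.1%) and 23 were not called, at a median of -0.13. Leaving out wild type replicate 1 gave 9 lower and 1 higher. Uhrf1, which brings the maintenance DNA methyltransferase to newly made DNA, fell from 12.2, 12.6 and 13.7 CPM in wild type to 5.26, 6.61, 6.14 and 7.21 CPM in mutant libraries (-1.03 ± 0.14, edgeR adjusted p = 8.63e-06). Its genotypes were far apart. Pola2, the second subunit of DNA polymerase alpha, fell from 13.1, 14.2 and 16.518 CPM to 10.5, 8.46, 7.68 and 6.97 CPM (-0.79 ± 0.14, edgeR adjusted p = 0.000246), while the catalytic subunit gene Pola1 was at 0.25 and not called. Rpa1, the large subunit of the single-strand binding protein RPA, fell from 36.8, 36.0 and 37.1 CPM to 25.5, 20.5, 22.4 and 24.1 CPM (-0.66 ± 0.09, edgeR adjusted p = 6.01e-06). Rpa2 and Rpa3, its smaller partners, had values of 0.09 ± 0.17 and 0.04 ± 0.18. The other 5 falls, named after their values were seen, were in Pold1, Tipin, Dut, Pole and Rfc1, from -0.55 to -0.30. Pole was not called without wild type replicate 3 (adjusted p = 0.0615).

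Among 16 other origin factors 2 rose (12.5%) and 0 fell by edgeR, with 6 at an unadjusted p under 0.05 and a median of 0.03. Over all tested genes 13.1% rose and 15.8% fell. The share with an unadjusted p under 0.05 was above 28.9% but was not counted, so the unadjusted count is not a result about these factors. Dbf4, the activator of the CDC7 kinase that fires origins, rose by 0.43 ± 0.10 (edgeR adjusted p = 0.00183), and Mtbp, a firing factor, by 0.62 ± 0.17 (edgeR adjusted p = 0.00706, or 0.0565 without wild type replicate 2). Cdc7 itself was at -0.02, and Orc3 to Orc6 at -0.02 to 0.21 with no call. Among 21 genes of the RB, E2F and CDK pathway 1 rose and 2 fell, at a median of 0.01. Cdk2, the kinase partner of E cyclins, fell from 4.27, 5.38 and 6.22 CPM in wild type to 2.22, 2.67, 2.95 and 3.67 CPM in mutant libraries (-0.88 ± 0.21, edgeR adjusted p = 0.00314), with no overlap. The D cyclin gene Ccnd3 fell by 0.53 and Lin54, a subunit of the DREAM complex that binds CHR elements, rose by 0.37 (adjusted p = 0.0094, or 0.0634 without wild type replicate 1). Cdk4 was not called (0.06), nor were the pocket protein genes Rb1, Rbl1 and Rbl2 (0.03, -0.11 and 0.07).

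CDK inhibitor genes were called in both directions, with 2 of 5 tested members lower and 1 higher, against 15.8% lower and 13.1% higher over all tested genes. Cdkn1b, which encodes p27, fell from 127, 130 and 122 CPM to 99.3, 95.8, 94.2 and 93.7 CPM (-0.40 ± 0.05, edgeR adjusted p = 7.58e-06). Cdkn2d fell by 0.53 and Cdkn1c rose by 0.17, a call lost without wild type replicate 2 (adjusted p = 0.084) or mutant replicate 2 (0.0609). Leaving out wild type replicate 1 or mutant replicate 4 gave 2 higher. Cdkn1a, a p53 target, was at 0.36 and not called (adjusted p = 0.0563), and Cdkn2a and Cdkn2b were too scarce to test. Of 18 tested p53 target genes 2 rose (Sesn2 by 1.21 and Bbc3 by 0.38), 3 fell (Pmaip1 by 1.23, Eda2r by 1.02 and Plk2 by 0.39) and 13 were not called, at a median of -0.07. These shares, 11.1% higher and 16.7% lower, are near those over all tested genes. Without mutant replicate 1 the count lower was 5.

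Other mitosis genes were taken from 3 lists, and their counts are read against 28.9% called, 15.8% lower and 13.1% higher over all tested genes. The share of all tested genes with an unadjusted p under 0.05 was above 28.9% but was not counted. Of 20 tested spindle and cytokinesis genes 1 fell and 0 rose, with 5 at an unadjusted p under 0.05 and a median of -0.25. Without mutant replicate 1 the count lower was 4, and without mutant replicate 4 it was 2. With all libraries the fall was in Racgap1, a regulator of the cleavage furrow, from 33.8, 32.3 and 34.5 CPM to 19.2, 22.0, 24.2 and 18.0 CPM (-0.68 ± 0.10, edgeR adjusted p = 2.04e-05). Of 16 kinetochore and checkpoint genes 1 rose (Zwint, 0.24) and 0 fell, with a median of 0.02, and without mutant replicate 1 1 fell. Of 13 condensin and cohesin genes 1 fell (Ncapd2, by 0.20, a call lost without wild type replicate 2 or 3 at an adjusted p of 0.0825 and 0.071) and 0 rose, with a median of -0.09, and without mutant replicate 4 1 rose.

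Markers of dividing and other cells moved between the genotypes in the same libraries. Over all tested genes 28.9% were called, 15.8% lower and 13.1% higher. The share with an unadjusted p under 0.05 was above 28.9% but was not counted. Of 10 tested radial glia markers 7 fell and 0 rose. The count lower was 6 by DESeq2, at an adjusted p under 0.01, and without wild type replicate 1 or 2 or mutant replicate 1 or 2. The sum of these markers was 725.7 to 751.3 CPM in wild type and 470.7 to 522.4 CPM in mutant libraries. Ptprz1 made up most of that sum, and Sox2, Fabp7 and Hopx were not called. Neuron markers rose in 4 and fell in 2 of 10, with sums of 12140 to 12880 and 11480 to 12150 CPM. Stmn2, a tubulin-binding protein gene named after its values were seen, fell from a mean of 1334 to 328 CPM (-2.02 on the log2 scale, edgeR adjusted p = 1.51e-15), more than the whole difference between the mean sums of 12620 and 11910 CPM. Intermediate progenitor markers fell in 2 and rose in 3 of 8, with sums of 232.5 to 266.2 and 207.8 to 252 CPM. Eomes was not called without wild type replicate 3 (adjusted p = 0.133), which left 1 lower, and DESeq2 and the robust edgeR fit gave 1 lower and 2 higher. Gadd45g, one of those that rose, went from 1.02 to 0.584 without mutant replicate 1. Oligodendrocyte precursor markers rose in 4 of 5, with sums of 10.18 to 13.96 and 16.83 to 32.37 CPM, and ventral progenitor and interneuron markers in 4 of 5 tested, with sums of 132.3 to 196.9 and 218.1 to 291.4 CPM. Microglia markers rose in 5 of 8 tested, with sums of 25.52 to 29.45 and 39.07 to 53.4 CPM, and in 3 without wild type replicate 1, mutant replicate 3 or mutant replicate 4, and by DESeq2. Endothelial markers fell in 1 of 5 tested, the single tested pericyte marker Pdgfrb fell, and of 4 tested erythroid genes 0 were called by edgeR, with 1 at an unadjusted p under 0.05. Without wild type replicate 1 all 4 erythroid genes were called higher, and without mutant replicate 2 1 was. Without wild type replicate 2 or mutant replicate 4 1 endothelial marker was called higher, and without wild type replicate 3 2 pericyte markers were called lower. Sums in wild type and mutant libraries were 8.811 to 9.956 and 7.324 to 10.15 CPM for endothelial and 22.17 to 129.2 and 52.52 to 162.3 CPM for erythroid genes. The markers Hes1, Nkx2-1, Gsx2, P2ry12, Cldn5, Cdh5, Rgs5, Kcnj8 and Anpep had 0 to 16 counts per library and were not tested, and none of them was at 0 in every library. The part of these shifts in the changes of replication and mitosis genes was not tested.

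**Figure D5:**
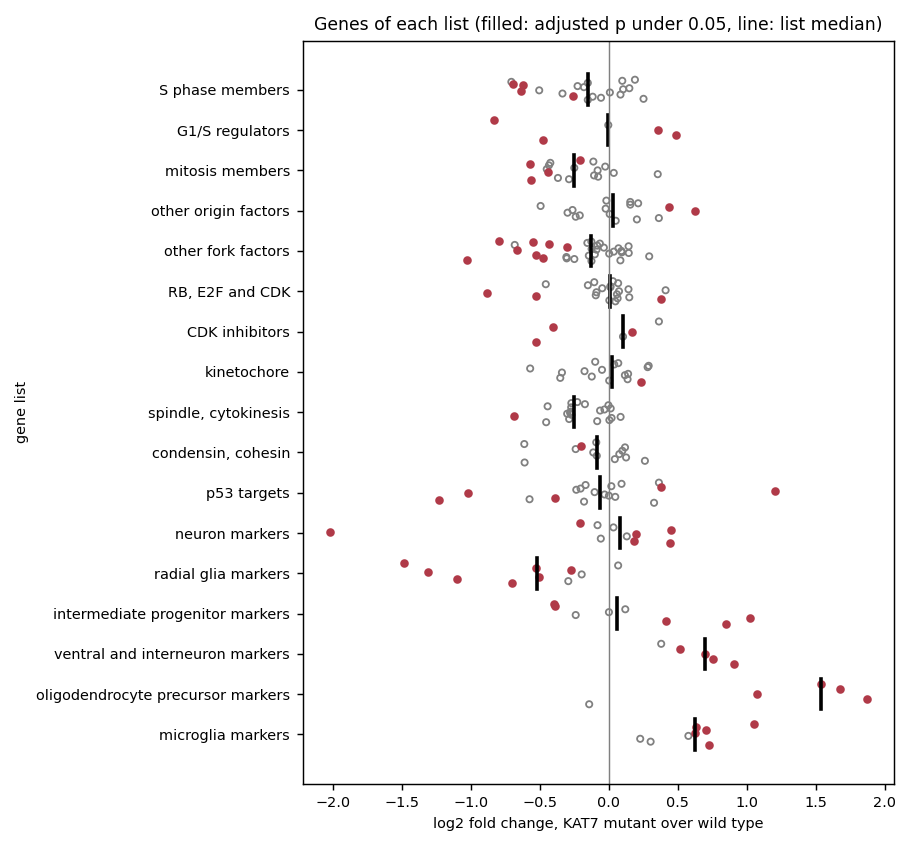
Log2 fold change of KAT7 mutant over wild type for each tested gene of 17 lists (filled points passed the test at an adjusted p under 0.05), with a black line at each list's median; endothelial, pericyte and erythroid genes are not drawn. The medians lie at -0.15 for S phase, -0.25 for mitosis and -0.52 for radial glia markers, and above 0 for oligodendrocyte precursor (1.54) and microglia (0.63) markers.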

How the data were processed

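The authors deposited whole-number read counts per Entrez gene for 7 libraries, with a gene length in bases. Per the submitters' processing notes, featureCounts and assembly mm9 were used; the sources used here do not name the aligner, annotation release or strand setting. Symbols came from RefSeq GRCm38.p6 by Entrez identifier (92% matched), and promoter sequences and their coordinates are of that build, not of mm9. Each column name was matched to 1 sample by its description in the labels.

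Genes were filtered with filterByExpr (minimum count 10), scaled with TMM (factors 0.9894 to 1.01) and compared with the quasi-likelihood test of edgeR 4.0.16 in R 4.3.3, two-sided, with genotype as the only term and Benjamini-Hochberg adjustment over all 13681 tested genes. Standard errors were derived from the log2 fold change and its F statistic, and intervals from the fit's degrees of freedom. The fit was also run on simulated counts with a small set of known changes, drawn with the dispersions estimated from these data. That run cannot show how the fit performs where 28.9% of genes are called. Within each genotype all pairs of libraries exceeded sampling noise (chi-square per gene 2.03 to 3.63), and each was kept as 1 replicate. Nothing in the labels says that replicates came from separate animals, so p-values measure only the spread between these libraries, which may be technical.

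The genes, lists, motifs and tests were chosen with earlier results of these data known. Values in every library are given for called genes, up to 5 per direction and role group. Up to 3 called genes per direction were named for each other list.

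Alternatives were RLE, upper-quartile or no factors, no filter, a minimum CPM of 1 in any 3 libraries, limma-voom (limma 3.58.1), DESeq2 1.42.0, edgeR's robust option, a block for replicate number, each library left out and an adjusted p under 0.01.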

Additional observations from a re-analysis of the deposited data

How the results depend on the processing

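The medians of S phase and mitosis genes stayed below 0 in every refit. With 1 library left out they were -0.194 to -0.109 and -0.322 to -0.179, and their difference was 0.0383 to 0.199, the highest without wild type replicate 2. With 1 library left out 3139 to 3988 genes were called in all. S phase genes then fell in 2 to 5 cases and rose in 0 to 1 (Mcm6, without mutant replicate 1), and mitosis genes fell in 1 to 5. G1/S regulators rose in 0 to 2, with 0 without wild type replicate 1 or 2 and 1 without mutant replicate 2 or 4. DESeq2 called 2 S phase and 1 mitosis gene lower and 1 G1/S regulator in each direction, and the robust edgeR fit 1 G1/S regulator lower. An adjusted p under 0.01 left 2566 calls (genes called, all tested), with 2 S phase and 1 mitosis gene lower and 0 G1/S regulators higher. Same-numbered libraries did not deviate together over all tested genes (correlations -0.0292 to 0.0181), but these few values cannot decide whether the numbers pair libraries. With the replicate block 2 S phase and 2 mitosis genes fell and 1 G1/S regulator rose. Of the 30 genes not called, 5 were called in at least 1 refit. Depth limits the scarcest genes: 4 of the 42 had under 20 counts per library on average, and the standard error ran from 0.0669 to 0.335.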
